A study of Mus musculus with 2 samples.

Results

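Synaptotagmin transcripts were measured on 2 whole-genome mouse oligonucleotide arrays, 1 for each genotype. The array held 34741 genes counted by name, some of them known only by an accession, a probe name or a chromosome region. The gene set was defined by name and held 10 synaptotagmins (Syt1, Syt2, Syt3, Syt4, Syt5, Syt7, Syt9, Syt10, Syt11 and Syt13), read by 12 probes. It was put together with the values of these arrays in view, Syt10 in particular, so the genotype differences below are a description and carry no test. The CSE-KO sample came from beta cells of C57BL/6J mice lacking CSE, and the CSE-WT sample, the control, from beta cells of wild-type C57BL/6J mice. Both groups were 6 months of age and had been fed a high-fat diet. CSE is cystathionine gamma-lyase, the hydrogen sulfide-producing enzyme encoded by Cth, and the comparison asks which transcripts differ when it is lost. How many animals gave each sample, how the gene was deleted and whether the beta cells were sorted are not given in the sources used here.

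Synaptotagmins are membrane proteins of secretory vesicles and the plasma membrane that carry a pair of C2 domains. In several members these domains bind calcium and then phospholipids and SNARE proteins, which couples a rise in cytosolic calcium to membrane fusion. In beta cells the same machinery releases insulin from dense-core granules when glucose closes KATP channels and calcium enters. Other members lack the residues that bind calcium and act in trafficking or in tuning release.

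Of the 10 synaptotagmins, Syt10 was 4.33-fold higher in the CSE-KO sample than in the CSE-WT sample, and no other member reached 2-fold in either direction. The 8 other members that were well above background on both arrays differed by -0.18 to 0.19 log2 units. Syt2 failed the detection rule, the scanner software's call that a spot is well above background, on both arrays. So 1 of 9 measured members was past 2-fold, and it was higher. Among all 22139 genes measured on both arrays, 0.718% were at least 2-fold higher in CSE-KO, 0.89% at least 2-fold lower and 1.61% past 2-fold in either direction.

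Each synaptotagmin is read by 60-base probes, and Syt10 by a single one, of which the first 30 bases are printed because the largest difference in the family rests on it. That probe (accession NM_018803) lies on the minus strand of chromosome 15, chr15:89612967-89613026 in mouse build mm9, and 43.3% of its bases are G or C. The bases printed are those at chr15:89612997-89613026. Where the probes fall in the exons was not determined. Beside it stand one probe of Syt3 and one of Syt6, which with Syt10 belong to a subgroup joined into dimers by disulfide bonds between N-terminal cysteines. The Syt3 probe lies at chr7:51654462-51654521 and the Syt6 probe at chr3:103424769-103424828, both on the plus strand of mm9. Capitals mark the longest run of bases that each shares with the whole Syt10 probe on the same strand.
Syt10: aggccaccgtccacaccataaaagcctcca
Syt3: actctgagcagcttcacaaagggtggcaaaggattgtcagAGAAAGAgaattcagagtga
Syt6: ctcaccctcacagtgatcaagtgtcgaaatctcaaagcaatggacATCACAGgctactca
The shared run was 7 bases in both cases. Over all 20 other synaptotagmin probes the longest same-strand run shared with the Syt10 probe was 8 bases, and over the 55680 other gene probes it was 14 bases. Binding of the Syt10 probe to transcripts of other genes was not tested.

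Syt10 is best known in neurons. In mouse olfactory bulb it acts as the calcium sensor for release of insulin-like growth factor 1, and in mouse hippocampus its gene responds to the activity-induced transcription factor Npas4. Its processed intensity, the fluorescence of the spot after the scanner software's spatial correction, was 4167 units on the CSE-KO array and 926 units on the CSE-WT array. Both values lay far above the lowest probe counted as well above background, which was 14.5 units on the CSE-KO array and 17.7 on the CSE-WT array. Scaled by the 75th percentile of each array, the level was 2.95 log2 units in CSE-KO and 0.83 in CSE-WT, a difference of 2.11.

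The spot itself was even on both arrays. On the CSE-KO array its 44 pixels had a raw mean of 4325 units with an SD of 311, and on the CSE-WT array its 41 pixels had a raw mean of 961 with an SD of 119. Local background was 65 units on the CSE-KO array and 68 on the CSE-WT array, so the difference lay in the spot and not around it. The surrounding gene spots, within 5 positions on the slide, had a median unscaled difference of 0.03 log2 units. None of the 12 synaptotagmin probes lay in a local patch of the slide, meaning a place where at least 25% of the surrounding spots differ 2-fold in one direction.

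On each array 399 probes were printed 10 times. The noise between spots was estimated from those of them well above background on both arrays, in 10 groups by level of 28 or 29 probes each. Combined from the spread of spots within each array, the SD of a difference at the level of Syt10 was 0.07 log2 units. The Syt10 difference was 32.5 times that. A step that acts on a whole array does not enter this SD. This SD covers printing, hybridisation and scanning within the arrays. It does not cover animals or preparations, of which the data hold no replicate, and having only 2 arrays limits how precise any difference given here can be. In the authors' deposited table of processed intensities Syt10 stood at 4111 units in CSE-KO and 944 in CSE-WT, a 4.35-fold difference.

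Ordered by difference, Syt10 was 7th from the top among all 22139 measured genes, and the median over all of them was -0.01 log2 units. Of the 6 genes above it, 4 lay below the median level of measured genes. Among the 11069 genes above the median level, Syt10 was 3rd, after Gm13194 (2.36 log2 units, its probe in a local patch) and 4930570B17Rik (2.21). Those names were chosen after their values had been seen.

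**Figure D1:**
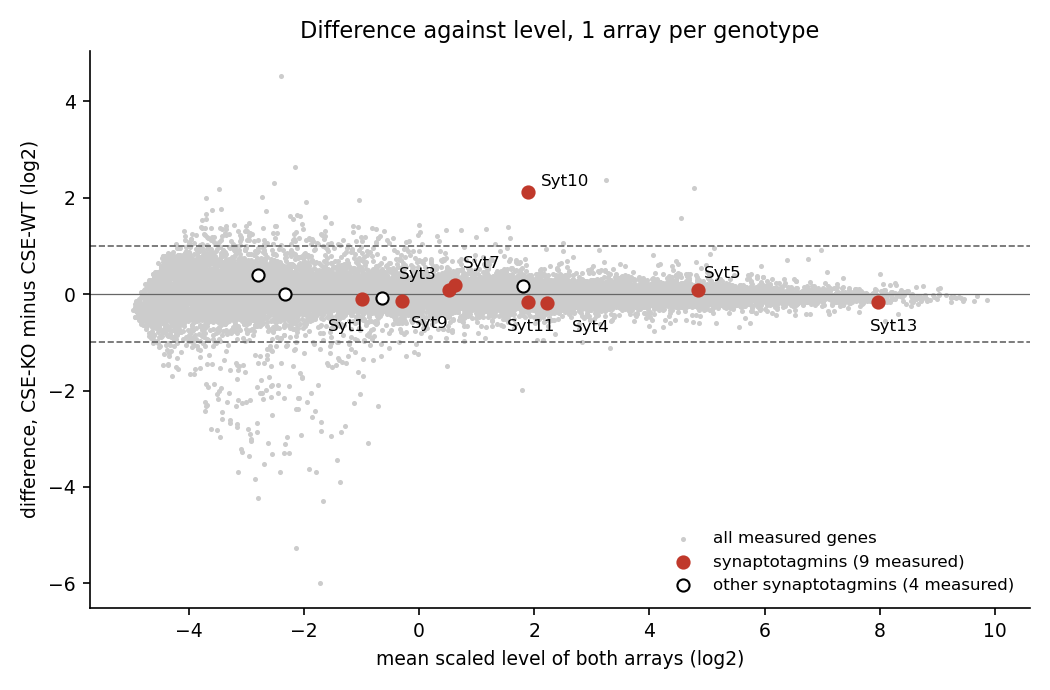
Difference between the arrays (CSE-KO minus CSE-WT, log2) against the mean scaled level, for all 22139 measured genes in grey, the 9 measured synaptotagmins in red and 4 other synaptotagmins as open circles. Dashed lines mark 2-fold, and Syt10 at 2.11 is the one synaptotagmin outside them.

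Syt1 and Syt2 are the sensors of fast, synchronous neurotransmitter release, and Syt9 serves the same step in other neurons and on dense-core vesicles. The Syt1 probe (chr10:107935310-107935369, mm9) read 259.8 units in CSE-KO and 269.8 in CSE-WT. Syt9 (chr7:114691578-114691637) read 419 units in CSE-KO and 444 in CSE-WT. Both were slightly lower in CSE-KO, by -0.11 and -0.14 log2 units after scaling, each within 3 times the spot SD. The Syt2 probe (chr1:136645935-136645994) read 9.25 units in CSE-KO and 12.4 in CSE-WT, against a 95th percentile of negative-control spots of 3.43 in CSE-KO and 4.32 in CSE-WT. No fold is given for it, since both values failed the detection rule.

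Syt5, like Syt9, is found on dense-core vesicles, and the names of these genes have been exchanged in part of the rat literature. Its probe (chr7:4491370-4491429) was bright, at 15932 units in CSE-KO and 14519.5 in CSE-WT. After scaling the difference was 0.08 log2 units, 1.06-fold, or 1.45 times the spot SD. The samples thus differed at this transcript by less than 3 times the spot noise.

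Syt7 binds calcium with high affinity and is needed for normal insulin and glucagon secretion in mice. It had 2 probes. The brighter probe (chr19:10527150-10527209) read 883 units in CSE-KO and 748 in CSE-WT, a difference of 0.19 log2 units with a spot SD of 0.08. The dimmer one (chr19:10522834-10522893) read 79.4 units in CSE-KO and 77.5 in CSE-WT, a difference of -0.02 with a spot SD of 0.21. Neither was past 3 times its spot SD, and averaging the probes gave 0.08.

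Syt3, another high-affinity member, acts in neurons in the retrieval of glutamate receptors from the synapse. Its brighter probe (chr7:51655255-51655314) read 796 units in CSE-KO and 721 in CSE-WT. The probe printed above read 438 units in CSE-KO and 364 in CSE-WT. Both were higher in CSE-KO, by 0.09 and 0.21 log2 units, which is 1.09 and 2.24 times the spot SD. Over the 6144 genes with several measured probes, the SD between the probes of a gene had a median of 0.12 log2 units and a root mean square of 0.29.

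Syt4 and Syt11 carry, in mammals, a substituted residue in the calcium site of the first C2 domain, and Syt4 tunes the calcium sensitivity of insulin release as mouse beta cells mature. Syt4 read 2372 units in CSE-KO and 2580.3 in CSE-WT. Syt11 (chr3:88548623-88548682) read 1891 units in CSE-KO and 2042 in CSE-WT. The scaled differences were -0.18 for Syt4 and -0.17 for Syt11, both lower in CSE-KO and both within 3 times the spot SD.

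Syt13 lacks calcium-binding residues, and in the mouse pancreas it takes part in the departure of endocrine progenitors from the epithelium. Its probe (chr2:92795818-92795877) read 127455 units in CSE-KO and 138211 in CSE-WT, a difference of -0.17 log2 units. That is -3.18 spot SDs, and Syt13 was the one member besides Syt10 past 3 times that SD. At the same SD it was within 3 times under 5 of 11 other ways of processing, with -0.11 under cyclic loess, -0.12 unscaled, -0.14 under median scaling and -0.16 under quantile scaling and in the authors' deposited table. Among all measured genes 7.75% were higher and 8.8% lower in CSE-KO by more than 3 spot SDs. For Syt13 the SD was taken from the brightest group of replicated probes, whose median level was 5.02 log2 units. Syt13 itself lay above that, at 7.88 in CSE-KO and 8.06 in CSE-WT. Because probes differ in brightness for the same amount of RNA, levels of different synaptotagmins are not ranked against each other.

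**Figure D2:**
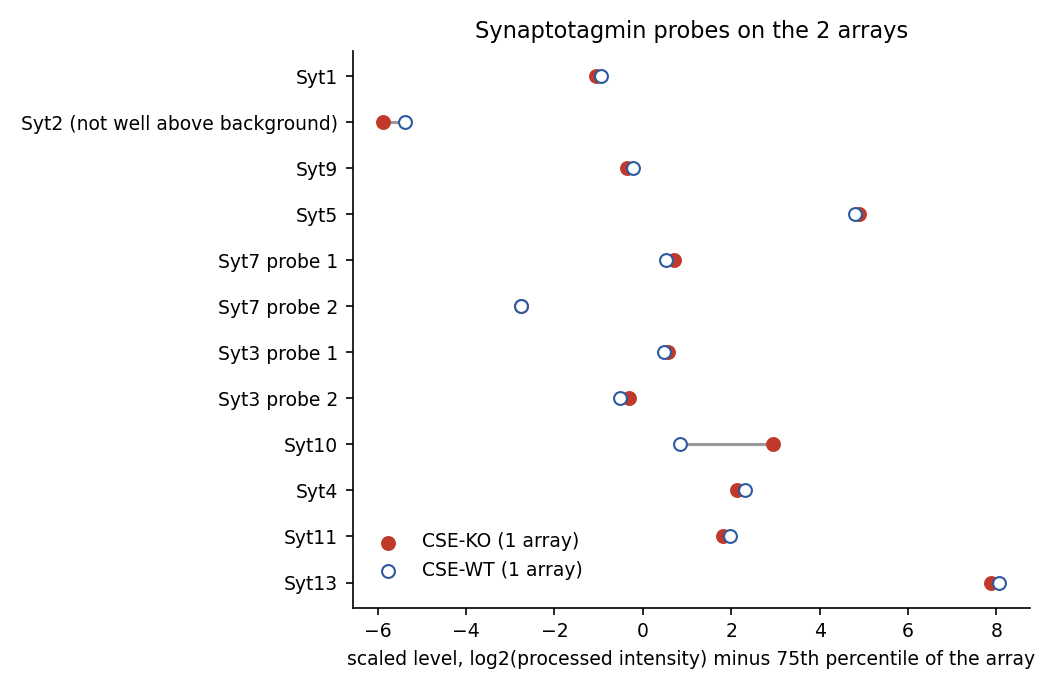
Scaled level (log2 of the processed intensity minus the 75th percentile of its array) of each of the 12 synaptotagmin probes, with CSE-KO as filled red and CSE-WT as open blue circles, 1 array each. The circles nearly overlap for the probes well above background except that of Syt10 (2.95 in CSE-KO and 0.83 in CSE-WT), and Syt2 failed the detection rule in both samples.

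Taken over the 9 measured members, 4 were higher and 5 lower in CSE-KO, with a median of -0.11 log2 units, or -0.12 without Syt10. Over all measured genes 10776 were higher and 11363 lower, and the median was -0.01. The bulk of the family thus differed by small amounts in both directions, and a median over its members does not show the Syt10 value.

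The 7 other synaptotagmins of the mouse were set beside them. Syt6, Syt8, Syt15 and Syt16 were measured, 3 higher and 1 lower in CSE-KO, with none past 2-fold and none past 3 times the spot SD. Of all measured genes 1.61% were past 2-fold in either direction, and 7.75% were higher and 8.8% lower by more than 3 spot SDs. Syt6, the close relative of Syt10, read 1987 units in CSE-KO and 1714 in CSE-WT by its brighter probe, a difference of 0.16 log2 units. Its other probe, printed above, was detected in CSE-KO alone, with 23.2 units there and 5.57 units in CSE-WT, which gives at least 1.26-fold higher in CSE-KO. For this bound the CSE-WT level was taken as the dimmest detected signal of that array, or as the probe's own where brighter. Syt15 differed by 0.39 log2 units (0.14 and 0.19 under background correction by normexp), Syt8 by -0.08 and Syt16 by 0.00. Syt17 was detected in CSE-KO only, at 19.8 units, against 12.9 units in CSE-WT, a bound of 1.07-fold higher. The bounds of Syt17 and of the dimmer Syt6 probe are both smaller than the spot SD at these levels, 0.36 log2 units. Neither bound therefore lies beyond spot noise. Syt12 and Syt14 were detected in neither sample.

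Synaptotagmin-like proteins and other tethers with C2 domains bring granules to the plasma membrane, several of them through the GTPases Rab27 and Rab3. All 13 listed genes were measured, 3 higher and 10 lower in CSE-KO, with a median of -0.17 log2 units. None was past 2-fold, against 1.61% of all measured genes, so few or none are expected in a list of this size. By more than 3 times the spot SD, 2 were higher and 3 lower, against 7.75% higher and 8.8% lower among all measured genes. The members that differed most were Rph3a, the Rab3 effector rabphilin (-0.77, though within 3 times the spot SD at its low level), and the Doc2 family gene Doc2g (0.61). They were followed by Sytl3 (-0.48) and Rph3al, which encodes the granule protein noc2 (-0.33). For Sytl3 the intensity was 215 units in CSE-KO and 288 in CSE-WT, and its other measured probe also gave a negative difference, -0.36.

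The SNARE proteins and their regulators are the partners on which synaptotagmins act. All 32 listed genes were measured, 14 higher and 18 lower in CSE-KO, with a median of -0.06. None was past 2-fold, against 1.61% of all measured genes, so few or none are expected in a list of this size. In each direction 3 were past 3 times the spot SD, against 7.75% higher and 8.8% lower among all measured genes. Rims3, a presynaptic scaffold gene, read 20161 units in CSE-KO and 30982 in CSE-WT (-0.68 log2 units, with its other probe at -0.54). Snap25, the plasma-membrane SNARE of insulin granule fusion, read 16150.4 units in CSE-KO and 11689 in CSE-WT, a difference of 0.41. Its relative Snap23 was at 0.37, but the 3 Snap23 probes ranged from -0.15 to 0.37. Stxbp5, which encodes the syntaxin-binding protein tomosyn, was also at 0.37, and this lay within 3 times its spot SD.

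Genes that respond to cell activity were listed because Syt10 is known in mouse neurons as a target of Npas4 and a sensor for release of Igf1. All 12 were measured, 5 higher and 7 lower in CSE-KO, with a median of -0.06. None was past 2-fold, against 1.61% of all measured genes, so few or none are expected in a list of this size. By more than 3 times the spot SD, 3 were higher and 4 lower, against 7.75% higher and 8.8% lower among all measured genes. Npas4 itself read 394 units in CSE-KO and 203 in CSE-WT, 1.87-fold higher. Rgs2, a regulator of G-protein signalling, read 93441 units in CSE-KO and 47545 in CSE-WT, 1.89-fold higher. The immediate early transcription factor genes Egr1 (450.3 units in CSE-KO and 803 in CSE-WT) and Nr4a1 (7968 units in CSE-KO and 12331 in CSE-WT) went the other way, with differences of -0.89 and -0.69. For Igf1, named here after its values had been seen, the brightest of 4 probes gave -0.02, and the probes ranged from -0.52 to 0.22.

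**Figure D3:**
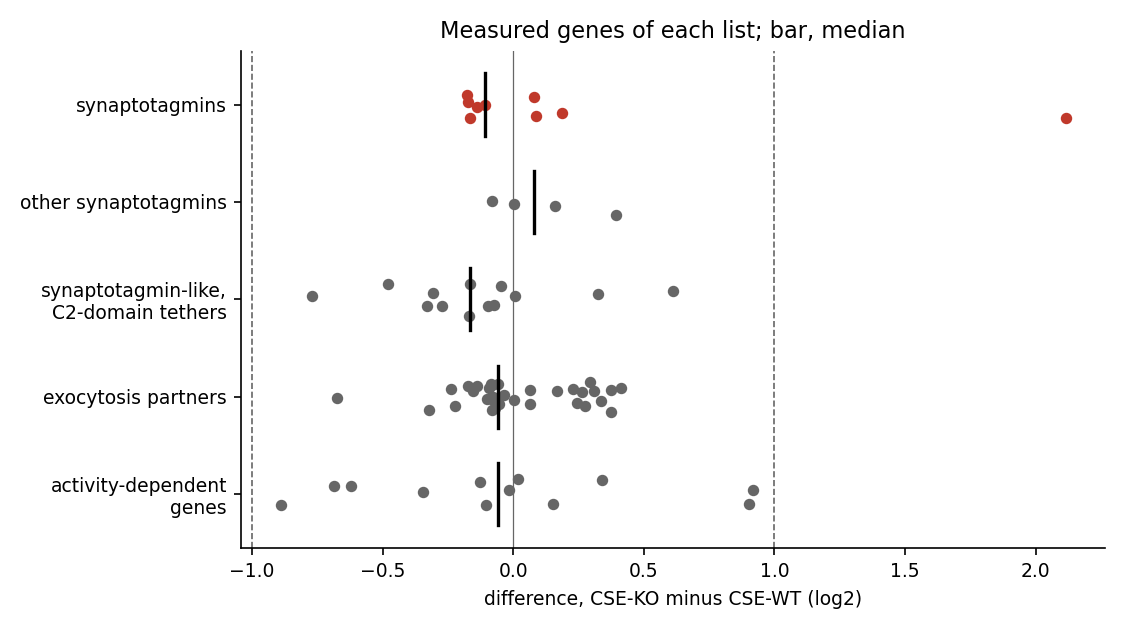
Difference (CSE-KO minus CSE-WT, log2) of every measured gene in 5 gene lists, with the median of each list as a vertical bar and 2-fold as dashed lines. Syt10 is the only point past 2-fold, which 1.61% of all measured genes passed, and the medians lie between -0.17 and 0.08.

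Genes with levels most like those of Syt10 were ranked over the 2 samples, by the Euclidean distance between scaled levels on both arrays. The nearest was Gm11559, a predicted gene (distance 0.71, 2.60-fold higher in CSE-KO). It was followed by the calcium-binding protein genes S100a4 (distance 0.80, 2.25-fold) and S100a6 (0.97, 1.93-fold), by Cdkn1a (0.94, 1.92-fold), which encodes the cell-cycle inhibitor p21, and by Napepld (0.98, 1.66-fold), an enzyme of N-acylethanolamine synthesis. Each of them differed less between the samples than Syt10, and a likeness over 2 samples describes these arrays only.

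Position was considered next. Within 1000 kb of the Syt10 probe on chromosome 15, 44 of 70 other probes were measured, for 39 genes. Their differences ran from -0.44 to 0.71 log2 units with a median of 0.06, and 0 of them passed 2-fold. Among all measured genes 1.61% passed 2-fold in either direction, so few such probes are expected in a window of this size. On one side the nearest measured named gene was Rabl2, whose brighter probe differed by -0.02, and on the other Alg10b, a glycosyltransferase gene, read 505 units in CSE-KO and 497 in CSE-WT (-0.03). The closest measured probe of all, 16.6 kb away and named only TC1724141 by the array's design, read 24.9 units in CSE-KO and 19.5 in CSE-WT, a difference of 0.30 that was below its spot SD of 0.36.

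**Figure D4:**
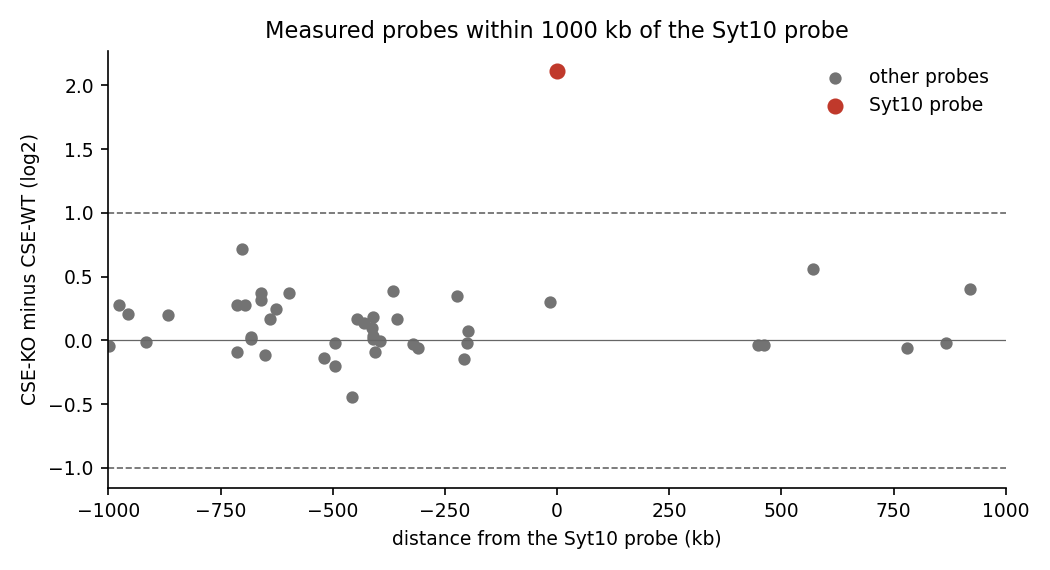
Difference (CSE-KO minus CSE-WT, log2) of the 44 measured probes within 1000 kb of the Syt10 probe, against their distance from it in kb. The Syt10 probe at 2.11 stands alone above the 2-fold line, and the others lie between -0.44 and 0.71.

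The promoter of Syt10 is printed because Syt10 was the member past 2-fold. The 130 bases shown lie just upstream of the outermost annotated start of the gene, at chr15:89841981-89842110 on the minus strand of GRCm38.p6, from RefSeq. Capitals mark the match to the cyclic AMP response element half-site.
Syt10 promoter: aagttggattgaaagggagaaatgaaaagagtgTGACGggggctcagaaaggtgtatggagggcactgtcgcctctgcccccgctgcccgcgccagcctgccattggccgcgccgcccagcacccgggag
The motifs searched on both strands were the half-site TGACG, the full cyclic AMP response element TGACGTCA (which contains the half-site), the E-box CANNTG, the bHLH-PAS core TCGTG and the TATA box TATAAA. The half-site had 1 match here, and 7.11% of 32851 mouse promoter windows of the same length and position hold it. The window had no match to the E-box, which 44.4% of windows hold, nor to TCGTG, held by 7.24%, to TATAAA, held by 6.50%, or to TGACGTCA, held by 0.262%. Promoter entries were matched for 6 of the 10 synaptotagmins, and the half-site was also in that of Syt2. A match of letters is a description and not a site of binding.

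Depth and cell content touch these values in the following way. On the CSE-KO array 59.6% of probes were well above background, and on the CSE-WT array 57.0%. Both probes of Cth, the gene of CSE, failed the detection rule in both samples, with 3.68 and 3.15 units in CSE-KO and 12.8 and 13.5 units in CSE-WT. The negative-control spots had a median of 3.11 units in CSE-KO and 3.86 in CSE-WT, and a 95th percentile of 3.43 in CSE-KO and 4.32 in CSE-WT. Cth thus lay close to the negative controls in CSE-KO and above them in CSE-WT, the direction the labels give. Other probes that failed the detection rule in both samples also differed. Syt12 read 4.02 units in CSE-KO and 9.21 in CSE-WT, and Syt14 read 14.3 in CSE-KO and 5.33 in CSE-WT. A lower CSE-KO value at this level is therefore not particular to Cth. What the deletion removes is unknown here, and no fold is given for Cth. Ins1 and Ins2 were bright in both samples, and so was the glucagon gene Gcg, at 360773 units in CSE-KO and 381292 in CSE-WT, although the samples are labelled as beta cells. In bulk samples, more cells of a type and more RNA per cell cannot be told apart.

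Markers of other cells were counted because several synaptotagmins are expressed in neurons and in endocrine cells of several kinds. Of all measured genes 48.7% were higher in CSE-KO. Of 14 beta-cell markers, all measured, 6 were higher and 8 lower in CSE-KO, and their summed intensity, which like all marker sums here is not scaled between arrays, was 1439930 units in CSE-KO and 1490650 in CSE-WT. Of 12 markers of other endocrine cells 2 were higher and 10 lower, with a sum of 1176900 units in CSE-KO and 1289130 in CSE-WT. Of 12 neuronal markers 9 were measured, 5 higher and 4 lower, with a sum of 11051 units in CSE-KO and 10064 in CSE-WT. Th alone made up 6301 units of that sum in CSE-KO and 5144 in CSE-WT. The median scaled difference of the measured neuronal markers was 0.0024 log2 units, but single markers ran from -0.32 to 0.84. Past 3 times the spot SD, 3 of them were higher and 2 lower, against 7.75% higher and 8.8% lower among all measured genes. Dbh and Chat were detected in neither sample, and Elavl3 in CSE-KO alone. Of 9 glial markers 6 were measured, 4 higher and 2 lower, with a sum of 1152 units in CSE-KO and 966 in CSE-WT. The median scaled difference of the measured glial markers was 0.30 log2 units. Foxd3, Erbb3 and Cdh19 were detected in neither sample.

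Marker lists of other cell types also differed between the samples. Of all measured genes 0.718% were at least 2-fold higher in CSE-KO, and 48.7% were higher by any amount. All 6 proliferation markers were past 2-fold higher in CSE-KO by their brightest probe, with a sum of 3010 units there and 1180 in CSE-WT. The probes of a gene differed for Cdk1, whose other measured probe gave -2.32, and for Birc5, whose 3 measured probes ran from 0.75 to 1.22. Of 10 macrophage markers 9 were higher, with a sum of 20974 units in CSE-KO and 15888 in CSE-WT. Of 8 stellate and fibroblast markers 6 were measured and all 6 were higher, with a sum of 2994 units in CSE-KO and 2181 in CSE-WT, while Pdgfra was detected in neither sample and Lum in CSE-KO alone. Acinar markers summed to 501544 units in CSE-KO and 506184 in CSE-WT, with 6 of 11 higher, and endothelial markers to 24858 units in CSE-KO and 24207 in CSE-WT, with 3 of 5 higher. After scaling, the CSE-KO over CSE-WT ratio of the endothelial sums was 0.988. The part of cell content in the Syt10 difference was not tested.

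**Figure D5:**
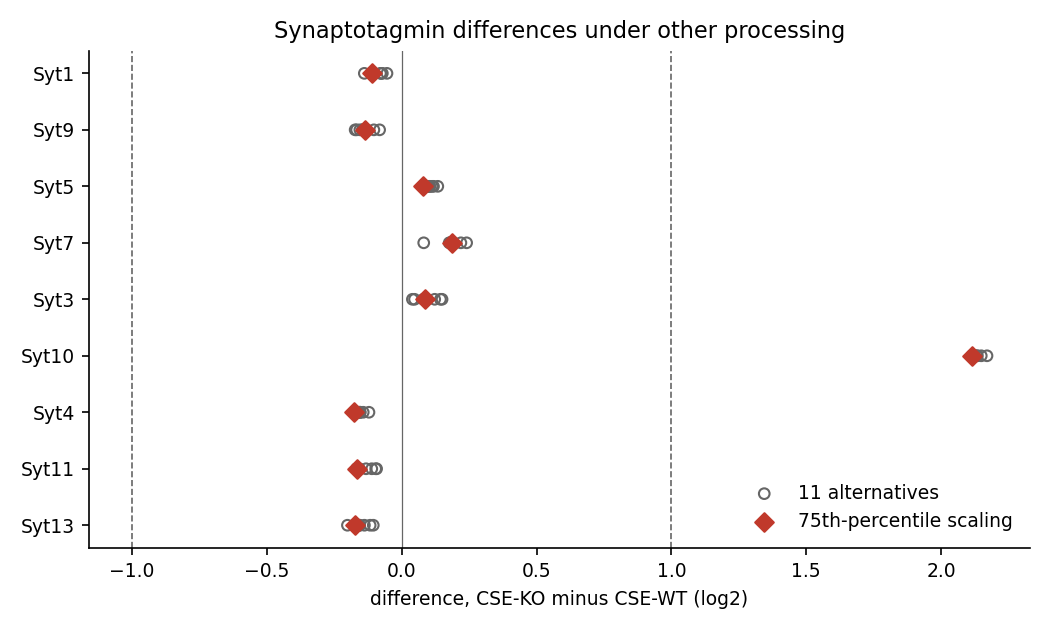
Difference (CSE-KO minus CSE-WT, log2) of the 9 measured synaptotagmins, with the 75th-percentile scaling as a red diamond and 11 alternative ways of processing as open circles. Syt10 stays between 2.11 and 2.17, and every other member keeps its side of 0 and lies well inside 2-fold (dashed lines).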

How the data were processed

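TRIzol-extracted total RNA was cleaned on columns and amplified into Cy3-labelled cRNA, per the labels' protocols. Per the file headers, the scanner files were made with Agilent Feature Extraction 10.7.1.1 (9.5.1.1 per the submitters' processing notes), and the deposited processed intensity is spatially detrended and linear. The authors also deposited a table of intensities whose 2 columns have equal medians (37.7), as quantile scaling gives. Its exact steps stay unknown, and its direction was fixed by correlation with each array (r = 0.9999 with its own, 0.986 and 0.985 with the other, across probes).

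Outlier spots were left out (169 in CSE-KO and 139 in CSE-WT, of 59305 gene spots each), log2 intensities were averaged per probe (55681 probes) and the 75th percentile of each array was subtracted. Genes were named from the files, updated by RefSeq accession or symbol. For 24300 probes the name in the file was kept, and each such name counts as a gene. A gene took its brightest probe well above background on both arrays. The fixed rule was 2-fold. It was also run on simulated data, whose outcome is not reported here and cannot give the variation between animals or preparations. Both arrays lay on 1 slide. All synaptotagmins were named, plus up to 4 genes with the largest difference per list and the 5 nearest to Syt10. One neuronal marker is not reported here. Members and lists were chosen with earlier results of these data known. R 4.3.3, limma 3.58.1, Python 3.11.15 and pandas 2.3.3 were used.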

Additional observations from a re-analysis of the deposited data

How the results depend on the processing

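With 1 array per genotype no paired or leave-one-out comparison was possible, and signal over background limits what can be said of Syt2, Syt12 and Syt14. Over the 11 alternatives (6 in scaling and background correction, the authors' table, no filter on dim probes, the mean of probes, patch probes left out and outlier spots kept), Syt10 lay between 2.11 and 2.17 log2 units. Because Syt10 has 1 probe, well above background and outside any patch, the filter, mean and patch alternatives could not change its value. Under each of the 11 alternatives the count of set members past 2-fold was 1 higher and 0 lower. None of the 9 measured members of the set turned sign. Syt16, outside the set, did turn, from 0.0035 to -0.0451 under cyclic loess. Under normexp it came to -0.0384 with the 75th percentile and -0.0028 with quantile scaling. Syt7 came to 0.08 with the mean of probes and, unscaled, to 0.24, past 3 times its spot SD. Syt11, -0.17, came to -0.09 and -0.10 under normexp, Syt13, -0.17, to -0.11 under cyclic loess and -0.12 unscaled, and Syt5, 0.08, to 0.13 unscaled. The median of the C2-domain tethers, -0.17, came to -0.0462 under normexp with quantile scaling. The count of all genes past 2-fold depended on the treatment of dim probes. From 159 higher and 197 lower it came to 1128 and 1436 with no filter, to 36 and 97 under normexp with the 75th percentile, and to 38 and 96 under normexp with quantile scaling.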
